A study of Homo sapiens with 16 samples.

Results

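The 9 genes described here encode the core of polyamine metabolism and its regulators, namely *ODC1*, *AZIN1*, *OAZ1*, *AMD1*, *SRM*, *SMS*, *SAT1*, *SMOX* and *PAOX*. They were taken by gene name from the 60623 genes counted in every library, and each name matched a single row. The members were selected on their ratios to DMSO and to the non-targeting control in these same libraries, so those ratios are given as a description, with no test. All 9 were tested in both experiments, whose filters on low counts left 17218 genes for PARP inhibition and 18606 for the knockdown.

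Polyamines are small, positively charged molecules that bind nucleic acids and are needed by dividing cells. Putrescine is made from ornithine, and spermidine and spermine are built from it by adding aminopropyl groups. Acetylation and oxidation turn the longer polyamines back into shorter ones, with hydrogen peroxide as a by-product of the oxidation, and leukemia cells, like other fast growing cells, are known for a high demand for polyamines.

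All libraries came from MUTZ-3, a human AML cell line with inv(3), in which a displaced *GATA2* enhancer drives *EVI1*, grown with GM-CSF and medium conditioned by another cell line. For PARP inhibition (PARPi), cells were harvested untreated (0 h) or after 12, 24 and 48 h with olaparib at 10 µM, with talazoparib at 1 µM or with the vehicle DMSO. For the knockdown, cells were transduced with lentiviral pLKO.1 carrying a non-targeting control shRNA (NTC) or the *EVI1* shRNAs shEVI1-2531 or shEVI1-2532, selected with puromycin and harvested at day 3 or day 6. Each of the 16 conditions was sequenced once. The p-values below therefore rest on what the models left unexplained, such as differences between arms that changed with the time point or day. They measure no spread between replicates. The labels do not say whether the libraries of a series came from separate cultures.

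Libraries held 55999673 to 72681943 counts for PARPi and 95523038 to 120716213 for the knockdown. *EVI1*, listed as *MECOM*, stood at 28.9% and 41.8% of NTC with shEVI1-2531 at day 3 and day 6, at 10.6% and 9.10% with shEVI1-2532, and between 13.4% and 91.7% of DMSO in the inhibitor libraries. The myeloid genes *PTPRC*, *SPI1*, *CD33*, *MPO*, *CEBPA* and *RUNX1* were above 1 CPM (counts scaled to a common library total) in each library, and *MS4A1*, *HBA2* and *KRT5* were at 0 in all 16. The summed level of 10 monocyte markers was 1142 to 1478 CPM with DMSO, 1396 to 8915 CPM with olaparib, 1394 to 14117 CPM with talazoparib, 1304 to 1585 CPM with NTC, 2662 to 2912 CPM with shEVI1-2531 and 8717 to 9266 CPM with shEVI1-2532. Most of it came from *LYZ*, *S100A8* and *S100A9* (3496, 3232 and 6907 CPM with talazoparib at 48 h). Other listed markers did not all follow. *CSF1R* was at 241 CPM with DMSO, 161 CPM with olaparib and 158 CPM with talazoparib at 48 h, and below NTC at both days with shEVI1-2531. *VCAN* was below NTC at day 3 with both shRNAs, and *CD68* reached at most 0.248 CPM. The summed level of 14 proliferation markers was 3673 to 4143 CPM with DMSO and reached 551 CPM with talazoparib at 48 h, and it was 2885 to 2937 CPM with NTC, 1864 to 1869 CPM with shEVI1-2531 and 961 to 983 CPM with shEVI1-2532. The 8 progenitor markers, which include *MECOM*, summed to 753 to 898 CPM with DMSO, 458 to 776 CPM with olaparib, 299 to 879.7 CPM with talazoparib, 620.4 to 1082 CPM with NTC, 262 to 289.5 CPM with shEVI1-2531 and 132 to 155 CPM with shEVI1-2532. Not every progenitor marker followed its sum. *KIT* was at 38.4 and 44.1 CPM with shEVI1-2531, against 35.6 and 22.2 CPM with NTC (day 3 and day 6). It was also above DMSO with olaparib at 12 h and 24 h. *SPINK2* was at 54.9 CPM with olaparib and 52.3 CPM with DMSO at 48 h. T and B cell markers summed to between 2.09 and 11.1 CPM, erythroid markers to at most 0.166 CPM and epithelial markers to at most 0.0536 CPM. In these bulk libraries fewer cells of a kind and less RNA per cell cannot be told apart, and the part of these marker shifts in the polyamine values was not tested.

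Per kilobase of exon, the genes of this pathway spanned a wide range in DMSO-treated cells. *OAZ1* was the highest at 282 to 301 RPKM, followed by *SRM* (95.3 to 171 RPKM) and *ODC1* (76.6 to 130.2 RPKM), whose ranges over the 3 DMSO libraries overlapped. *SMS* lay at 63.7 to 66.9 RPKM, below both. *AZIN1* (39.3 to 42.4 RPKM) and *AMD1* (33.2 to 42.5 RPKM) overlapped each other. *SAT1* (16.1 to 21.9 RPKM) and *SMOX* (3.07 to 8.12 RPKM) followed without overlap, and *PAOX* was close to the limit of detection at 0.0725 to 0.186 RPKM. From here on, levels are in CPM and differences between single libraries are log2 ratios of CPM, whose 95% exact binomial intervals cover counting error only.

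Scaling to the library total moved all ratios of some pairs together. The median log2 ratio over all genes tested was -0.19 with olaparib and -0.27 with talazoparib at 48 h, and between -0.14 and -0.31 in the knockdown pairs, while it stayed between -0.02 and 0.02 in the pairs at 12 h and 24 h. The median over the 9 polyamine genes was -0.41 and -0.39 in the 48 h pairs, 0.10 and 0.06 with shEVI1-2531, and -0.37 and -0.43 with shEVI1-2532 (day 3 and day 6). Where TMM scaling turned a direction, it is given beside the value.

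*ODC1* (ENSG00000115758, GRCh38 chr2:10439968-10448327, minus strand) encodes ornithine decarboxylase, the enzyme that makes putrescine and the first committed step of the pathway, and is a textbook target of MYC. Its level was 336 CPM in untreated cells. With DMSO it was 386 CPM at 12 h, 328 CPM at 24 h and 227 CPM at 48 h. With olaparib it was 298, 218 and 88.5 CPM at the same hours, and with talazoparib 280.3, 165 and 48.8 CPM. All 6 inhibitor libraries were below the DMSO library of their hour, and the gap was wider at each later hour, although the DMSO level itself was lower at 48 h than at 12 h (58.8% of it). The log2 ratio to DMSO was -0.37, -0.59 and -1.36 with olaparib and -0.46, -0.99 and -2.22 (95% interval -2.28 to -2.16) with talazoparib, so that the last library held 21.5% of the DMSO level. In the knockdown, *ODC1* was at 214 and 201 CPM with NTC (day 3 and day 6), 239.8 and 209.8 CPM with shEVI1-2531, and 165 and 149 CPM with shEVI1-2532. The shRNAs lay on opposite sides of NTC, with log2 ratios of 0.17 and 0.06 for shEVI1-2531 and of -0.37 and -0.43 for shEVI1-2532. By TMM these were 0.33 and 0.22 for shEVI1-2531 and -0.18 and -0.15 for shEVI1-2532, so the size of the gap to NTC depends on the scaling. The *ODC1* span also contains the small nucleolar RNA gene *SNORA80B*, counted separately.

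*SRM* and *ODC1* were the only members with a promoter window that held the E-box CACGTG, the hexamer that MYC and related factors bind, among the 6 members (9 windows) found in the RefSeq table of promoters on GRCh38.p14. Each window runs from 250 bases before to 50 after an annotated start. The hexamer reads the same on both strands and was present in 7.26% of the 35116 windows of all genes, with 2 or more copies in 0.664%. The windows that hold it are shown, with the E-boxes in capitals. *AMD1* and *SMS*, also below DMSO at 48 h with both inhibitors, had only windows without the hexamer. The *SRM* window (chr1:11059969-11060268, minus strand) holds 1 copy whose first base lies at -199 from the start. An *ODC1* window at a downstream start inside the gene (chr2:10447963-10448262, minus strand) holds 2 copies, at -29 and 6 (the start being base 1), while the window of the upstream *ODC1* start holds none. A match is only a match of letters, and binding was not measured in these libraries.
SRM promoter: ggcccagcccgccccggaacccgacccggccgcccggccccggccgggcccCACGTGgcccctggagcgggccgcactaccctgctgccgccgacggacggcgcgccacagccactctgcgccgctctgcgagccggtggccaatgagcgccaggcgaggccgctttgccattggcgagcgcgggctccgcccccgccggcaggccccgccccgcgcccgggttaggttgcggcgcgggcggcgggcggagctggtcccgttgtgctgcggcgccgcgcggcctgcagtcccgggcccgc
ODC1 downstream start: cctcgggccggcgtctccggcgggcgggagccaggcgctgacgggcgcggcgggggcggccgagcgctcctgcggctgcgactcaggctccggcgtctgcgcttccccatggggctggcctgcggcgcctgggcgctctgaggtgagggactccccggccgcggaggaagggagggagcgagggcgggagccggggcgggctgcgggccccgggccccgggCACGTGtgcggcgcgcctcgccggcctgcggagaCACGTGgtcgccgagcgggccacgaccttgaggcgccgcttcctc

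*AZIN1* (ENSG00000155096, chromosome 8) encodes antizyme inhibitor, a protein related to ornithine decarboxylase that binds antizyme and so spares the enzyme. Untreated cells had 171 CPM. DMSO libraries had 253, 272 and 272 CPM at 12, 24 and 48 h, olaparib libraries 235, 275 and 303 CPM, and talazoparib libraries 196, 286 and 266 CPM. The log2 ratios to DMSO lay between -0.37 and 0.16 with no steady direction, and the value for talazoparib at 48 h was -0.03 by library total and 0.23 by TMM, while that for olaparib at 24 h was 0.02 and -0.03. In the knockdown *AZIN1* was at 225 and 130.2 CPM with NTC, 209 and 159 CPM with shEVI1-2531, and 188 and 172 CPM with shEVI1-2532 at day 3 and day 6. It was below NTC at day 3 (log2 ratios -0.10 and -0.25) and above it at day 6 (0.29 and 0.40), but by TMM the day 3 ratios were 0.06 and -0.06, so the day 3 direction depends on the scaling. *AZIN1* overlaps the antisense gene *AZIN1-AS1*, and whether counting used strand is not given in the sources used here.

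*OAZ1* (ENSG00000104904, chr19:2269509-2273490, plus strand) encodes antizyme, which binds ornithine decarboxylase, sends it for degradation and restrains polyamine uptake. It had 949 CPM in untreated cells, 969, 1035 and 1003 CPM with DMSO, 951, 985 and 1324 CPM with olaparib, and 913, 1040.1 and 1404 CPM with talazoparib. At 12 h both inhibitor libraries were slightly below DMSO (log2 ratios -0.03 and -0.09), and at 48 h both were above it (0.40 and 0.49). With NTC it was at 1150.4 and 1137 CPM, with shEVI1-2531 at 1670.4 and 1366 CPM, and with shEVI1-2532 at 1116 and 1188 CPM. The ratio was largest for shEVI1-2531 at day 3 (0.54), and that for shEVI1-2532 at day 3 was -0.04 by library total and 0.15 by TMM. The output of *OAZ1* is set largely by a polyamine-dependent frameshift during translation, which RNA counts do not show.

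**Figure D1:**
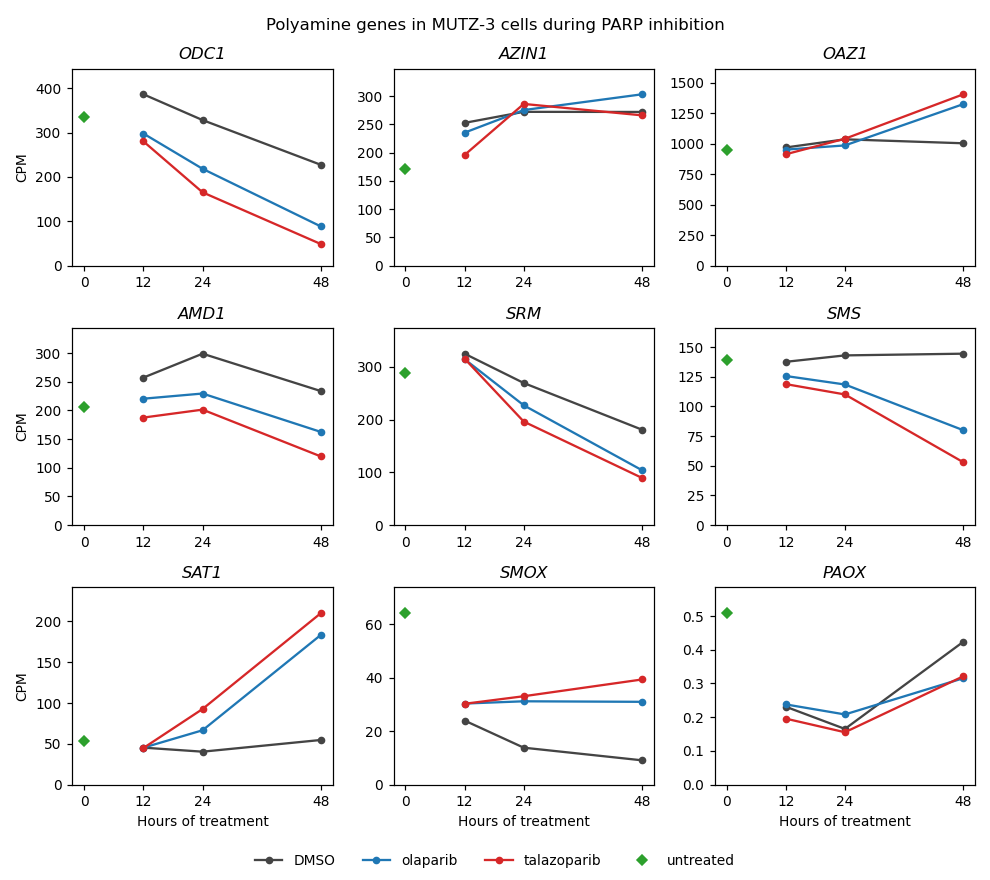
Levels of the 9 polyamine genes in CPM (linear axes from 0) against hours of treatment, with 1 library per point and therefore no error bars. The green diamond is the untreated library. *ODC1* ends at 227 CPM with DMSO, 88.5 CPM with olaparib and 48.8 CPM with talazoparib, *SAT1* at 54.7, 184 and 210.3 CPM, and for *SMOX* the inhibitor lines stay between 30.2 and 39.3 CPM while the DMSO line is at 23.9 CPM at 12 h and 9.06 CPM at 48 h.

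*AMD1* (ENSG00000123505, chr6:110874770-110898879, plus strand) encodes S-adenosylmethionine decarboxylase, which supplies the aminopropyl groups for spermidine and spermine. It had 206 CPM in untreated cells and 257, 299 and 234 CPM with DMSO. With olaparib it had 220.4, 229 and 162 CPM, and with talazoparib 187, 201 and 119.7 CPM. Each inhibitor library was below its DMSO library, by log2 ratios of -0.22, -0.38 and -0.52 with olaparib and -0.46, -0.57 and -0.96 with talazoparib. In the knockdown it was at 228 and 133 CPM with NTC, 187 and 139 CPM with shEVI1-2531, and 122 and 98.7 CPM with shEVI1-2532. The lowest ratio was that of shEVI1-2532 at day 3 (-0.91), and shEVI1-2531 at day 6 was slightly above NTC (0.06). Named pseudogene copies of *AMD1* held at most 7 counts in any library.

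*SRM* (ENSG00000116649, chr1:11054584-11060020, minus strand) encodes spermidine synthase, which adds an aminopropyl group to putrescine. It was at 288 CPM in untreated cells and at 325, 269 and 181 CPM with DMSO, a course that was itself lower at 48 h. Olaparib libraries had 315, 227 and 104 CPM, and talazoparib libraries 316, 196 and 89.4 CPM. At 12 h the ratios to DMSO were small (-0.05 and -0.04), and at 48 h they were -0.80 and -1.02. With NTC it was at 205 and 279 CPM, with shEVI1-2531 at 220.2 and 286 CPM, and with shEVI1-2532 at 154 and 181 CPM. The log2 ratios were 0.10 and 0.03 for shEVI1-2531 and -0.42 and -0.63 for shEVI1-2532.

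*SMS* (ENSG00000102172, chrX:21940709-21994837, plus strand) encodes spermine synthase, which turns spermidine into spermine. Its level hardly differed between untreated cells (139 CPM) and the DMSO libraries (138, 143 and 144 CPM). It was 126, 119 and 80.0 CPM with olaparib and 119, 110.1 and 53.0 CPM with talazoparib. All 6 inhibitor libraries lay below all 3 DMSO libraries, and the log2 ratio at 48 h was -0.85 and -1.45. In the knockdown *SMS* was at 126 and 123 CPM with NTC, 118 and 96.9 CPM with shEVI1-2531, and 70.4 and 64.4 CPM with shEVI1-2532. The 4 shEVI1 libraries were below both NTC libraries by library total, with ratios of -0.09 and -0.34 for shEVI1-2531 and -0.83 and -0.93 for shEVI1-2532, but the first of these was 0.07 by TMM.

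*SAT1* (ENSG00000130066, chrX:23783173-23786226, plus strand) encodes spermidine/spermine acetyltransferase, the inducible enzyme that starts polyamine breakdown and export. It had 53.2 CPM in untreated cells and 45.3, 40.3 and 54.7 CPM with DMSO. It had 45.2, 66.6 and 184 CPM with olaparib and 44.8, 92.7 and 210.3 CPM with talazoparib. The 12 h libraries were at the DMSO level, with log2 ratios of -0.0023 for olaparib (95% interval -0.08 to 0.07), which was 0.0042 by TMM, and -0.02 for talazoparib (-0.09 to 0.06). At 24 h the ratios were 0.72 and 1.20, and at 48 h they were 1.75 and 1.94, which is 3.36-fold and 3.85-fold. Against untreated cells the 48 h libraries were 3.45-fold and 3.96-fold higher. In the knockdown *SAT1* was at 59.9 and 54.4 CPM with NTC, 83.1 and 64.9 CPM with shEVI1-2531, and 99.7 and 83.7 CPM with shEVI1-2532. All 4 shEVI1 libraries were above both NTC libraries, with log2 ratios of 0.47 and 0.25 for shEVI1-2531 and 0.74 and 0.62 for shEVI1-2532.

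*SMOX* (ENSG00000088826, chr20:4120980-4187747, plus strand) encodes spermine oxidase, which turns spermine back into spermidine. It was highest in untreated cells at 64.1 CPM, a library in which 3.37% of counts were mitochondrial, against 1.77% to 2.46% in the other PARPi libraries. With DMSO it was 23.9 CPM at 12 h, 13.8 CPM at 24 h and 9.06 CPM at 48 h. With olaparib it was 30.3, 31.1 and 30.9 CPM, and with talazoparib 30.2, 33.0 and 39.3 CPM. Each inhibitor library was above the DMSO library of its hour, and all 9 treated libraries were below the untreated library. The log2 ratio to DMSO was 0.34, 1.18 and 1.77 with olaparib and 0.34, 1.26 and 2.12 with talazoparib, whereas the ratio to the untreated library was -1.08, -1.04 and -1.05 with olaparib and -1.09, -0.96 and -0.71 with talazoparib. Most of the widening of the ratio to DMSO lay in the denominator, since the DMSO level at 48 h was 37.8% of that at 12 h, a log2 difference of -1.40. Which of the 2 references stands for an undisturbed culture cannot be told apart with 1 library each.

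In the knockdown *SMOX* was at 9.26 CPM with NTC at day 3 and 15.3 CPM at day 6. It was at 33.1 and 62.3 CPM with shEVI1-2531 and at 33.5 and 51.7 CPM with shEVI1-2532. All 4 shEVI1 libraries were above both NTC libraries, by log2 ratios of 1.84 (95% interval 1.74 to 1.94) and 2.03 (1.95 to 2.11) for shEVI1-2531 and of 1.85 (1.76 to 1.95) and 1.76 (1.68 to 1.84) for shEVI1-2532. The *SMOX* ratios of the 4 pairs spanned 1.76 to 2.03. At both days *MECOM* was lower and the monocyte marker sum higher with shEVI1-2532 than with shEVI1-2531. Of these markers, *CD14* was at 9.88 and 10.4 CPM at day 3 and at 14.6 and 23.8 CPM at day 6 (shEVI1-2531, shEVI1-2532). How *SMOX* relates to the *EVI1* level or to cell state was not tested.

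*PAOX* (ENSG00000148832, chr10:133379261-133391694, plus strand) encodes the peroxisomal oxidase of acetylated polyamines. It was close to undetected, with 9 to 74 counts per library and 0.155 to 0.613 CPM, against a floor of 3 counts. In the PARPi experiment the intervals of all 6 ratios included 0. With NTC it had 0.613 and 0.513 CPM, with shEVI1-2531 0.220 and 0.298 CPM, and with shEVI1-2532 0.219 and 0.179 CPM. The log2 ratios were -1.48 (-2.25 to -0.76), -0.79 (-1.45 to -0.15), -1.48 (-2.24 to -0.78) and -1.52 (-2.37 to -0.73) in the same order. The gene overlaps *AL360181.3* on the same strand, so its few counts are uncertain.

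**Figure D2:**
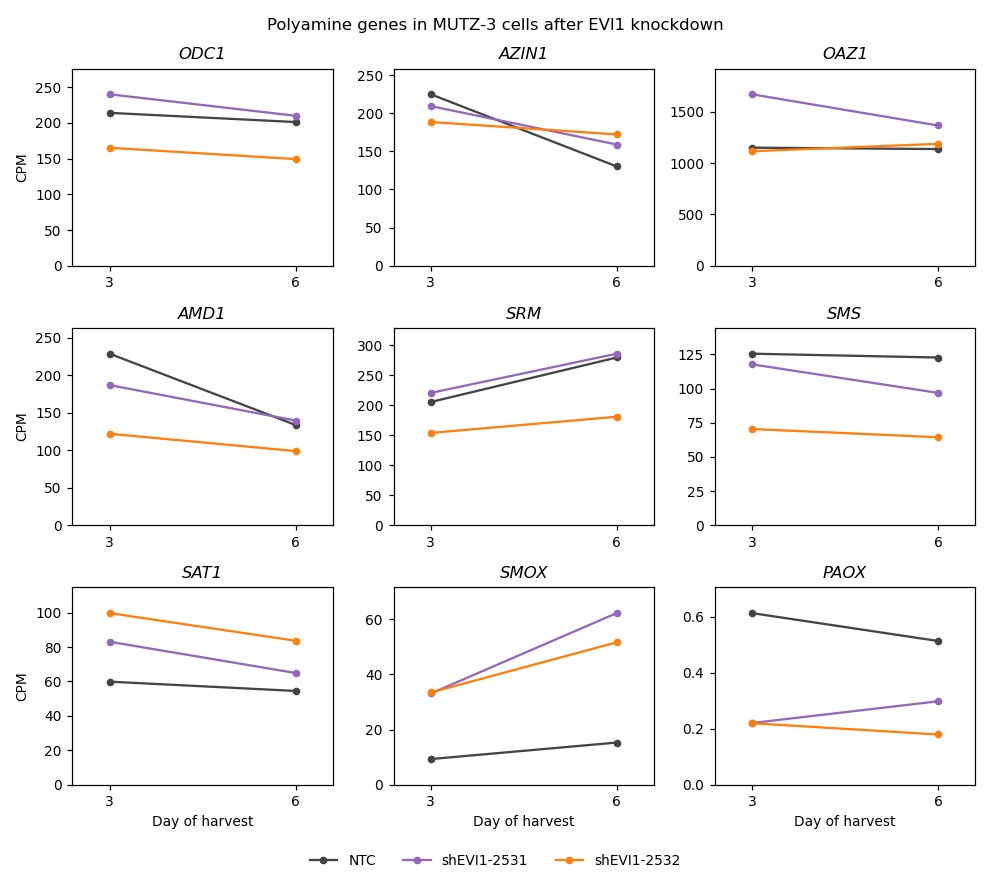
Levels of the 9 polyamine genes in CPM (linear axes from 0) at day 3 and day 6 for NTC, shEVI1-2531 and shEVI1-2532, with 1 library per point and no error bars. Both shRNA lines of *SMOX* run from 33.1 and 33.5 CPM to 62.3 and 51.7 CPM, above NTC at 9.26 and 15.3 CPM, whereas for *ODC1*, *SRM* and *SMS* the shEVI1-2532 line lies below the other lines.

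Counted at 1.5-fold in single pairs, no member passed at 12 h, where 7.07% of all genes tested were higher and 5.17% lower with olaparib, and 8.37% and 4.98% with talazoparib. At 24 h *SMOX* and *SAT1* were higher and *ODC1* lower with either inhibitor, beside 13.4% of genes higher and 7.03% lower with olaparib, and 16.5% and 12.2% with talazoparib. At 48 h *SMOX* and *SAT1* were higher with either inhibitor, beside 16.4% of genes with olaparib and 19.8% with talazoparib. On the lower side at 48 h were *ODC1*, *SRM* and *SMS* with olaparib, beside 26.4% of genes, and these with *AMD1* for talazoparib, beside 36.0%. These 2 to 4 of 9 members per direction stand beside large shares of the transcriptome and nothing is read from them, since the members were selected on these ratios. Without regard to size, *SMOX* was higher in all 6 pairs, as were 15.1% of genes, and *ODC1*, *AMD1*, *SRM* and *SMS* were lower in all 6, as were 20.9%. The 6 pairs share 3 DMSO libraries.

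In the knockdown pairs *SMOX* was 1.5-fold higher and *PAOX* 1.5-fold lower in all 4, beside 3.80% and 9.59% of genes. With shEVI1-2531 these were the only members past 1.5-fold by library total. Of all genes 12.4% were higher and 27.9% lower at day 3, and 10.9% and 21.6% at day 6. With shEVI1-2532 *SAT1* was also higher at both days, beside 17.3% of genes at day 3 and 15.3% at day 6. *SMS* was also lower at both days, *AMD1* at day 3 and *SRM* at day 6, beside 35.6% of genes lower at day 3 and 37.1% at day 6. By TMM, *SAT1* (0.63) and *OAZ1* (0.70) also passed as higher with shEVI1-2531 at day 3, and *AZIN1* (0.68) with shEVI1-2532 at day 6. *SRM* with shEVI1-2532 at day 6 did not pass by TMM (-0.35). Shares over all genes by TMM were not computed.

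**Figure D3:**
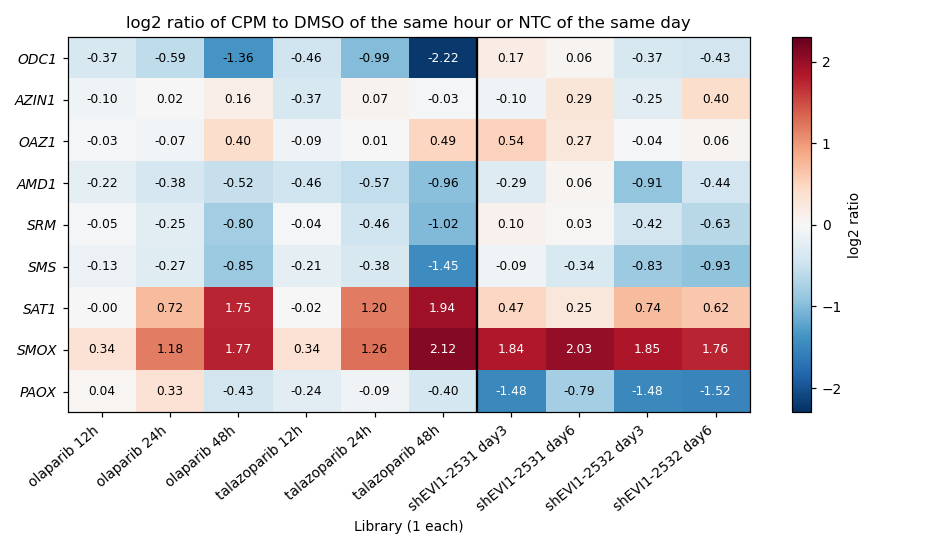
Log2 ratios of CPM for each of the 9 genes (rows) in each of the 10 inhibitor or shEVI1 libraries (columns) against DMSO of the same hour or NTC of the same day, with red for higher and blue for lower. The map shows *SMOX* above its control in all 10 columns (0.34 to 2.12) and *ODC1* below it in the PARPi columns and the shEVI1-2532 columns but not with shEVI1-2531.

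The members were selected on the ratios of each shRNA to NTC. The difference between the shRNAs comes from the same libraries, so its p-values are not free of that selection. It was tested with edgeR's quasi-likelihood test over all 18606 genes (2 residual degrees of freedom, adjusted after Benjamini-Hochberg). *SAT1* was higher with shEVI1-2532 than with shEVI1-2531 by 0.45 log2 (SE 0.13, adjusted p = 0.0284). The biosynthetic genes *ODC1* (-0.38, SE 0.12, adjusted p = 0.0409), *SRM* (-0.46, SE 0.12, adjusted p = 0.0181) and *SMS* (-0.53, SE 0.13, adjusted p = 0.0120) were lower. *AMD1* missed the threshold at -0.42 (adjusted p = 0.0589). Scaled to the library total in place of TMM, *SAT1* missed it (0.31, adjusted p = 0.108), while *AMD1* (-0.55, adjusted p = 0.0183) and *OAZ1* (-0.39, adjusted p = 0.0471) passed. *SMOX* showed no difference beyond its error, at 0.0045 with a 95% interval of -0.33 to 0.34. *OAZ1* (-0.26), *AZIN1* (0.13) and *PAOX* (-0.25) did not pass. Thus 1 of 9 was higher and 3 of 9 were lower, beside 12.2% and 12.0% of all genes, and the median over the members was -0.26 against 0.02 over all genes. The calls rest on few libraries, since leaving out 1 of the 4 shEVI1 libraries leaves 1 library of that shRNA. In those 4 fits the log2 difference ran from 0.31 to 0.55 for *SAT1* and from -0.48 to -0.32 for *ODC1*. It ran from -0.50 to -0.41 for *SRM* and from -0.69 to -0.41 for *SMS*. *SAT1* and *ODC1* missed the threshold without any of these 4 libraries (adjusted p from 0.0606 to 0.293 and from 0.0628 to 0.275), *SRM* without shEVI1-2531 of day 3 or shEVI1-2532 of day 6, and *SMS* without either day 3 library, with each sign kept. The monocyte marker sum was higher and the proliferation marker sum lower with shEVI1-2532 than with shEVI1-2531 at both days, and their part in this difference was not tested.

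The same model gave the difference between day 6 and day 3 over the 3 arms. *SMOX* was higher at day 6 by 0.60 log2 (SE 0.13, adjusted p = 0.00600) and higher in each arm, NTC included. *AMD1* (-0.65, SE 0.12, adjusted p = 0.00374), *AZIN1* (-0.59, SE 0.13, adjusted p = 0.00869) and *SAT1* (-0.40, SE 0.11, adjusted p = 0.0197) were lower. For *AMD1* and *AZIN1* the NTC libraries showed the widest gap, day 6 standing at 58.4% and 57.9% of day 3. The call for *AZIN1* was lost without either NTC library (adjusted p = 0.0640 without day 3 and 0.0623 without day 6), and that for *SAT1* without either shEVI1-2531 library (0.128 and 0.129). With scaling to the library total the call for *SAT1* was also lost (-0.25, adjusted p = 0.114), and *SRM* passed as higher (0.35, adjusted p = 0.0270). *ODC1* (-0.29, adjusted p = 0.0528), *SMS* (-0.30, adjusted p = 0.0630), *SRM* (0.20), *OAZ1* (-0.22) and *PAOX* (-0.20) did not pass. Of all genes 11.9% were higher and 11.9% lower, and the median was -0.29 over the members and 0.03 over all genes.

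Olaparib, given at 10 µM, and talazoparib, given at 1 µM, are both PARP inhibitors, and the doses differ, so the contrast is one of these treatments and not of equal exposure. Across the 3 hours no member differed between them by the same test (4 residual degrees of freedom), nor did any of the 17218 genes (0.00% in either direction), while 354 genes and 1 member, *AMD1*, had an unadjusted p under 0.05. DESeq2 called 0 members. The differences, talazoparib minus olaparib, were 0.21 (95% interval -0.52 to 0.94) for *SMOX*, 0.28 (-0.53 to 1.10) for *SAT1*, -0.37 (-0.92 to 0.17) for *ODC1* and -0.24 (-0.49 to -0.0008) for *AMD1*. For *SMS* it was -0.20 (-0.61 to 0.21), for *SRM* -0.10 (-0.43 to 0.24), for *OAZ1* 0.08 (-0.32 to 0.48), for *AZIN1* -0.09 (-0.41 to 0.23) and for *PAOX* -0.17 (-0.84 to 0.50). Only the interval of *AMD1* did not include 0, and its adjusted p was 0.952 (edgeR). The absence of calls does not show equal levels with both inhibitors. The model held a single difference for all 3 hours, so a difference that changed with the hour added to the error. The test therefore cannot decide whether the inhibitors differed at 1 hour only, such as 48 h.

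**Figure D4:**
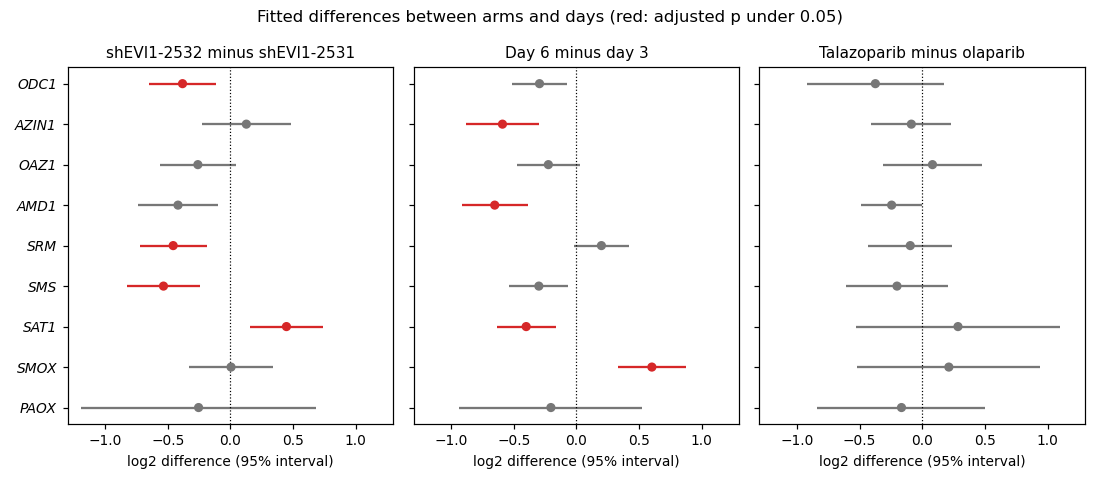
Fitted log2 differences with 95% intervals for the 9 genes, from edgeR, for shEVI1-2532 minus shEVI1-2531, day 6 minus day 3 and talazoparib minus olaparib. Red marks an adjusted p under 0.05, which 4 genes reached between the shRNAs, 4 between the days and 0 between the inhibitors, and the *SMOX* point of the left panel lies at 0.

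Of 38 further genes of polyamine metabolism (ornithine and methionine supply, other antizymes and acetyltransferases, hypusination of eIF5A, and transport), 28 passed the filter in the PARPi experiment. After PARPi, 2 of them were lower and 0 higher by the mean effect of both inhibitors (edgeR), beside 1.01% of all genes lower and 3.16% higher. *MAT2A*, which makes S-adenosylmethionine, the substrate of the *AMD1* product, was lower, at -0.51 log2 (SE 0.09, adjusted p = 0.0342). *ENOPH1*, an enzyme of the methionine salvage that recycles the by-product of spermidine and spermine synthesis, was lower, at -0.62 (SE 0.13, adjusted p = 0.0444). Both calls failed without the olaparib library of 12, 24 or 48 h or the DMSO or talazoparib library of 24 h, that of *ENOPH1* also without DMSO at 48 h. The count with 1 library left out ranged from 0 to 9, the 9 being without DMSO at 12 h, beside 27.6% of all genes. The median over the 28 was -0.15, against -0.0064 over all genes.

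After *EVI1* knockdown, 30 of the 38 passed the filter and 0 were called (edgeR, both shRNAs as 1 group, 3 residual degrees of freedom), beside 0.849% of all genes higher and 0.806% lower. An unadjusted p under 0.05 (edgeR) was reached by 6 of the 30, beside 4406 of all 18606 genes tested. DESeq2 called 5 of the 28 to which it gave an adjusted p, beside 14.2% of all genes. The median over the 30 was 0.03, against 0.02 over all genes. Tested alone against NTC, shEVI1-2532 gave 17 calls of 29 tested, beside 44.6% of all genes, and shEVI1-2531 gave 10 of 30, beside 21.5%. The list was not set apart from other genes by a test.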

How the data were processed

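RNA-Seq of MUTZ-3 cells covered 16 libraries (100 bp paired-end, polyA selected, stranded kit). Raw counts for each gene were deposited by the authors. The submitters' processing notes name STAR, Picard and featureCounts with hg38 (GRCh38), with versions and the strand setting not given in the sources used here. The authors also deposited TPM, which were not used in any result. The files of the arm labelled shEVI1-2531 carry another number in their names, so its identity rests on the sample labels. The members and all gene lists were chosen with earlier results of these data known.

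Levels are CPM of the library total (55999673 to 72681943 for PARPi, 95523038 to 120716213 for the knockdown), and a level of 3 counts equals 0.0249 to 0.0536 CPM. RPKM used exon lengths of GENCODE annotation. Single-library ratios carry exact 95% binomial intervals, which cover counting error only, and RPKM values and ratios carry no test. Genes reaching 10 counts in 3 or more of the 9 PARPi time course libraries, or in 2 or more of the 6 knockdown libraries, were fitted with edgeR 4.0.16 (TMM, quasi-likelihood F test, Benjamini-Hochberg over all genes tested, threshold 0.05) in R 4.3.3. The models held time point and inhibitor, day and shRNA, or day and knockdown. The fitting steps were run on simulated data with planted changes larger than the differences called here, so recovery of differences of this size was not tested. Alternatives were library total and DESeq2 size factors, no filter, DESeq2 1.42.0, a threshold of 0.01, other models and each library left out. The genes named are the 9 members, the called genes among the 38 further polyamine genes (at most 4 per direction and experiment), the member most like each member, and the 3 genes most like *SMOX*, *SAT1* and *ODC1* by Pearson's r over the 10 pairs, with a mean of at least 8 CPM, of which 1 is not reported here. Promoter windows came from a RefSeq table (GRCh38.p14), in which 6 of the 9 members were matched. Figures were drawn with matplotlib 3.10.9.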

Additional observations from a re-analysis of the deposited data

Results flagged for a closer look

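The difference of the effect of shEVI1-2532 from that of shEVI1-2531 passed the test of the difference itself (edgeR, adjusted p under 0.05) for 4 of the 9 genes, beside 12.2% of all genes higher and 12.0% lower, with the same NTC libraries in both effects. Leaving out any 1 of the shEVI1 libraries leaves 1 library of that shRNA, and the calls for *SAT1* and *ODC1* were lost each time. With all libraries the log2 differences were 0.45 for *SAT1*, -0.38 for *ODC1*, -0.46 for *SRM* and -0.53 for *SMS*.

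*AZIN1* was below NTC in both shEVI1 libraries at day 3 and above it in both at day 6, and the mean log2 ratios of the days differed by 0.52. This difference was not tested. By TMM the shEVI1-2531 library of day 3 was above NTC, and by DESeq2 size factors both day 3 libraries were (0.10 and 0.03). From day 3 to day 6 the log2 change of *AZIN1* was -0.79 in NTC, -0.40 with shEVI1-2531 and -0.13 with shEVI1-2532. *OAZ1* was below DMSO with both inhibitors at 12 h and above it with both at 48 h, with a difference in the mean log2 ratio of 0.50, which was not tested either.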

How the results depend on the processing

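With the untreated library in place of DMSO, the *SMOX* log2 ratios turned to -1.04 and -0.96 at 24 h and -1.05 and -0.71 at 48 h (olaparib, talazoparib), and 28 in place of 17 of 54 member ratios passed 1.5-fold. By TMM the count was 18, with *OAZ1* passing for talazoparib at 48 h (0.75), and for NTC ratios 16 in place of 14 of 36. Shares over all genes were not computed for these counts, and nothing is read from them. Calls between the shRNAs were 0 at a threshold of 0.01, against 4, and the share over all genes at that threshold was not computed. By library total they were 5 of 9, beside 24.3% of all genes. Leaving out 1 shEVI1 library, which leaves 1 library of that shRNA, also changed the calls. Calls between the days were 3 to 5 with 1 library left out, and calls between the inhibitors 0 in every alternative run. The 2 calls among the further polyamine genes after PARPi became 0 at a threshold of 0.01 and 0 without the time point (0.0929% of all genes called). They became 1 by library total (2.72%), 8 without the filter (11.2%) and 7 by DESeq2 (20.4%). With 1 library left out they were 0 to 9 (0.0351% to 0.403% where 0, and 27.6% for the 9). The 0 calls after knockdown became 4 of 36 without the filter (8.46% of all genes called), 5 of 28 by DESeq2 (14.2%), 17 of 29 with shEVI1-2532 alone (44.6%), 10 of 30 with shEVI1-2531 alone (21.5%) and 1 of 30 without the day (3.23%). The causes were not tested. No paired analysis was possible because each condition has 1 library and the labels carry no replicate numbers to pair by, while the hour or the day was already a factor in the models. Among the members, depth limits *PAOX* (9 to 74 counts), and having 1 library per condition limits all tests.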

Other observations

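Likeness was measured as Pearson's r of the log2 ratios over the 10 pairs of libraries, which share 5 control libraries, among 9146 genes, and it is given as a description. *SMOX* was most like *CCR2* (0.973), a chemokine receptor of monocytes, *PIK3R3* (0.969), a regulatory subunit of PI3-kinase, and *CD14* (0.968), a monocyte marker. *SAT1* was most like *RN7SL1* (0.970), an RNA of the signal recognition particle, *SGSH* (0.963), a lysosomal enzyme, and *ANXA6* (0.962), an annexin. *ODC1* was most like *PRUNE1* (0.987) and *INTS14* (0.986), a subunit of the Integrator complex. Marker sums of monocytes and of proliferation differed between the same libraries, and their part in these values was not tested.

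Among the members, *SRM* and *SMS* were most like each other (0.92), *ODC1* was most like *SRM* (0.88) and so was *AMD1* (0.73). *SMOX* and *OAZ1* were most like each other (0.66), *SAT1* (0.57) and *AZIN1* (0.49) were most like *SMOX*, and *PAOX* was most like *SMS* (0.24). *SAT1* ran against *SRM* (-0.88) and *ODC1* (-0.86).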
